A study of Mus musculus with 6 samples.

Results

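Notch signalling passes between neighbouring cells. A ligand of the Delta or Jagged family on the surface of a cell binds a Notch receptor on the next, proteases then free the inner part of the receptor, and that fragment joins the DNA-binding protein RBPJ in the nucleus and switches on Hes and Hey genes. In the embryonic brain these genes encode repressors that hold neural stem cells back from becoming neurons, and the pathway is a textbook requirement for keeping such cells in culture. The data cover 10 genes of the pathway, taken by name and Entrez ID from the 27179 gene records of a mouse RNA sequencing study. They are the receptors Notch1, Notch2 and Notch3, the ligands Jag1, Dll1 and Dll3, the DNA-binding factor Rbpj, and the targets Hes1, Hes5 and Hey1.

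The study compared neural stem cells with and without Smchd1, a chromatin protein of gene silencing. There were 3 libraries labelled Smchd1MommeD1/MommeD1 (Smchd1 null), homozygous for an allele with a nonsense mutation, and they were set against 3 labelled Smchd1 wild-type. All 6 came from cells of male embryos of the C57BL/6 x FVB/N strain, taken from brain at E14.5 and grown on coated plates in medium with the growth factors EGF and bFGF. The labels number the replicates but do not say whether they are separate embryos or cultures, so the p-values measure only the spread between these libraries, which may be technical. The comparison asked which genes change when Smchd1 is lost in all cells of the culture.

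The libraries held 18608881 to 23253367 counts, and wild type replicate 3 stood apart from the rest. The 6 records that each held over 1% of the counts in some library made up 58.3% of wild type replicate 3, against 5.84% to 11.7% of the other 5, which left it an effective depth (total times TMM factor) of 10.1 M counts, against 21.3 to 25.8 M. Its ranks over genes were also closer to the null libraries, with Spearman correlations of 0.992 to 0.993, than to wild type replicates 1 and 2, with 0.985 and 0.983. It shares with the null libraries a sample name numbered 11 to 14, while the names of wild type replicates 1 and 2 fall in another range. Its Smchd1 level fitted its label. Smchd1 had 30.3, 31.1 and 27.9 CPM (counts scaled to a common effective depth, the usual CPM unit) in null replicates 1 to 3, against 271, 260 and 232 CPM in wild type replicates 1 to 3. Where the call or the sign of a named pathway gene changes without wild type replicate 3, its value or its call in that fit is given too.

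Markers of neural stem cells were abundant in both genotypes. The 10 fixed markers, Nes and Sox2 among them, summed to 5879 to 6037 CPM in null libraries and 5949.5 to 6235 CPM in wild type libraries. Vessel markers summed to 3.52 to 4.28 CPM in null and 3.26 to 7.14 CPM in wild type with Cdh5 at 0 throughout, and microglia markers summed to at most 0.281 CPM in null and 0.426 CPM in wild type with Itgam and Tyrobp at 0 throughout. The 8 neuronal markers summed to 1364 to 1405 CPM in null and 1466 to 1492 CPM in wild type, most of it Map2 and Gap43, and 4 of 7 tested fold changes were above 0. Stmn2 had at most 0.198 CPM, Rbfox3 at most 1.28 CPM and Snap25 at most 3.08 CPM in any library. Dcx, a gene of young neurons, had 3.19, 4.03 and 4.15 CPM in null replicates 1 to 3, against 0.814, 0.384 and 5.56 CPM in wild type replicates 1 to 3. Rbfox3 lay the other way, at 0.376, 0.937 and 0.401 CPM in null, against 1.28, 1.07 and 0.794 CPM in wild type. Map2 did too, at 967, 978 and 999 CPM in null, against 1101, 1094 and 1058 CPM in wild type. The 6 astrocyte markers summed to 288 to 306 CPM in null and 302 to 333 CPM in wild type, most of it Aldoc, Aldh1l1 and Gja1.

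Many glial markers in wild type replicate 3 lay on the null side of wild type replicates 1 and 2, often beyond the null libraries. Aldh1l1, an astrocyte enzyme, had 75.7, 77.0 and 72.5 CPM in null, against 36.3, 51.8 and 99.9 CPM in wild type, and Gfap, Aqp4 and S100b, at most 2.58 CPM in any library, were also higher in wild type replicate 3 than in wild type replicates 1 and 2. Gja1 lay the other way, at 55.5, 54.7 and 51.9 CPM in null, against 91.1, 106.2 and 60.2 CPM in wild type. No marker was called over all 6 libraries. In the fit without wild type replicate 3, 4 of 6 astrocyte and 8 of 8 oligodendrocyte lineage markers were called higher and 1 astrocyte marker lower. The 10 neural stem cell markers had 3 called higher and 2 lower in that fit, and the neuronal markers 2 and 2. Over all genes 19.7% were called higher and 19.4% lower. The oligodendrocyte lineage markers moved with wild type replicate 3 as a sum too. They summed to 1425, 1434 and 1506.5 CPM in null replicates 1 to 3, against 1213, 1115.5 and 1600.2 CPM in wild type replicates 1 to 3. These are bulk libraries, so fewer cells of a type and less RNA per cell cannot be told apart, and the part of such cells in the Notch gene levels was not tested.

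No Notch pathway gene passed the test of null against wild type over all 6 libraries. All 10 genes were abundant enough to be tested, and 0 of 10 had an adjusted p under 0.05 in the edgeR quasi-likelihood test, where 0.577% of the 14207 tested genes did. Hes1 and Rbpj had an unadjusted p under 0.05, as did 18.6% of all tested genes. DESeq2 called 1 of the 10, Hes1, against a background of 2.78%, and limma-voom called 0 against 0.894%. The median log2 fold change of the 10 was -0.04, beside 0.00 over all tested genes, with 2 above 0 and 8 below. The 95% confidence intervals lay within -0.74 and 0.55 on the log2 scale for every one of the 10.

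Without wild type replicate 3, 6 of the 10 passed, where 39.2% of 14494 tested genes did. Notch1 and Hey1 were higher in null, and Notch2, Jag1, Rbpj and Hes1 were lower. The null libraries did not overlap wild type replicates 1 and 2 for these 6, as was the case for 61.2% of all tested genes. Wild type replicate 3 lay on the same side of the mean of wild type replicates 1 and 2 as the null mean did for 10 of 10 genes, beside 80.7% of all genes. For 5 genes it was the highest of the 6 libraries and for 2 the lowest, beside 22.6% and 21.3% of all genes.

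**Figure D1:**
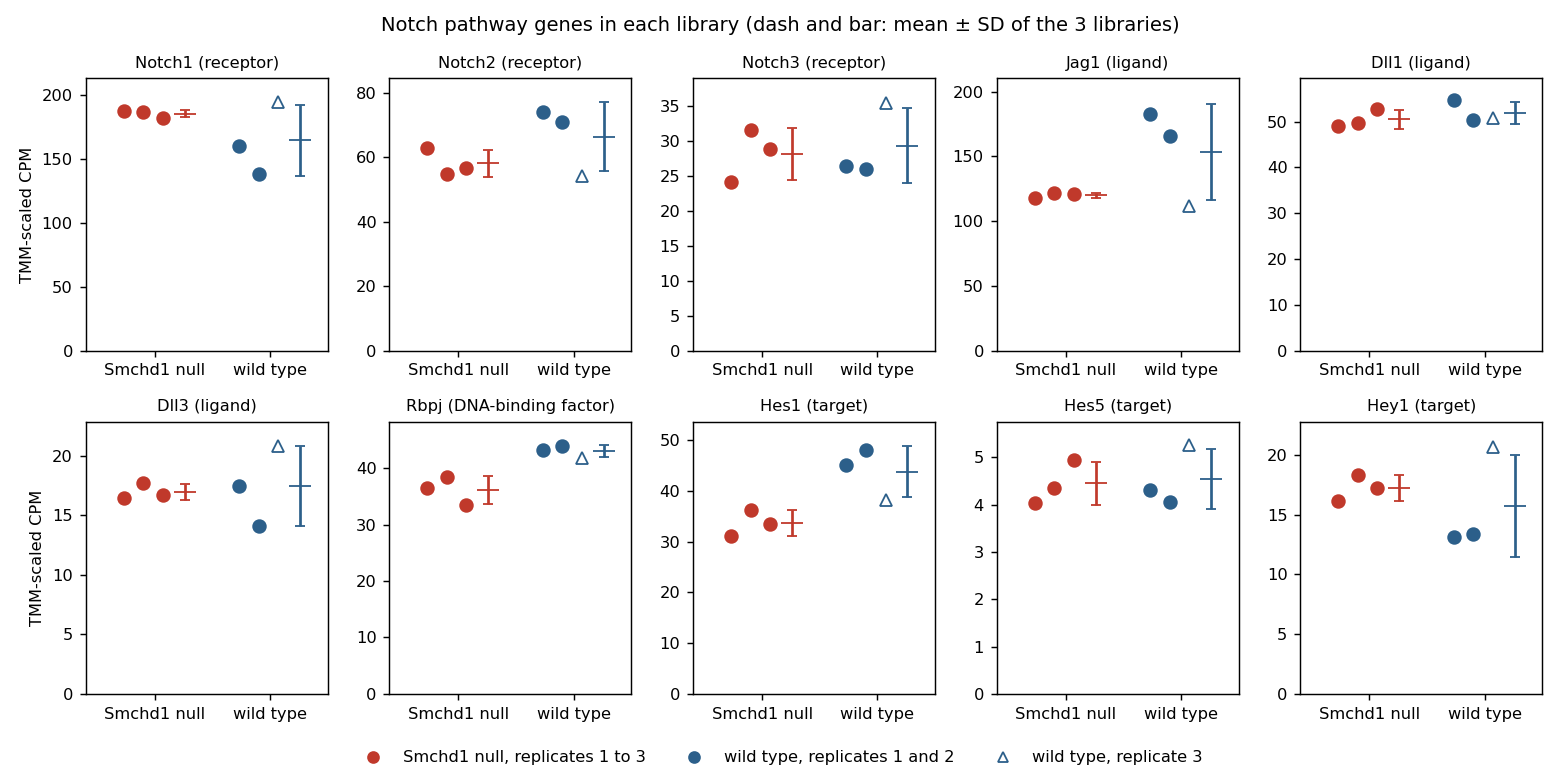
TMM-scaled CPM of the 10 Notch pathway genes (y axes, each from 0) in the 3 Smchd1 null libraries and the 3 wild type libraries, 1 point per library, with the mean ± SD of each group beside them. The open triangle, wild type replicate 3, is the highest of all libraries for Notch1, Notch3, Dll3, Hes5 and Hey1 and the lowest for Notch2 and Jag1. The groups are separate only for Rbpj and Hes1.

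Among the receptors Notch1 was the most abundant, Notch2 came next and Notch3 was the lowest, in counts per kilobase of gene length. Notch1, the main receptor of embryonic neural stem cells, had 187, 186 and 182 CPM in null replicates 1 to 3, against 160.2, 138 and 194 CPM in wild type replicates 1 to 3. The null libraries lay above wild type replicates 1 and 2 and below wild type replicate 3, so the groups overlapped. The log2 fold change of Notch1 was 0.18 ± 0.11 (SE, 95% interval -0.08 to 0.43, adjusted p = 0.404). Without wild type replicate 3 it was 0.31 ± 0.06 with an adjusted p of 0.000582, and among the libraries named 11 to 14 it was -0.07.

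Notch2, a receptor that stem cells and their progeny share, showed the opposite order. It had 62.9, 54.9 and 56.6 CPM in null libraries, against 74.0, 70.9 and 54.1 CPM in wild type libraries. Wild type replicate 3 was the lowest of all 6. The log2 fold change of Notch2 was -0.20 ± 0.12 (SE, 95% interval -0.47 to 0.07, adjusted p = 0.381) over all libraries and -0.32 ± 0.06 (adjusted p = 0.000927) without wild type replicate 3. Notch3, a receptor known best from the muscle cells of vessels, had 24.2, 31.5 and 28.9 CPM in null, against 26.5, 26.0 and 35.5 CPM in wild type. Its groups overlapped, and its log2 fold change of -0.04 ± 0.14 (adjusted p = 0.884) became 0.10 ± 0.09 (adjusted p = 0.417) without wild type replicate 3. The vessel markers summed to at most 7.14 CPM in any library, as given above, and that highest sum was in wild type replicate 3. The part of vessel cells in the Notch3 level was not tested.

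Jag1 varied most of the 10 genes over the 6 libraries, with a range of 0.71 in log2 CPM, and Dll1 least, with 0.16. Jag1, the Jagged-type ligand, had 118, 122 and 121 CPM in null libraries, against 183, 166 and 112 CPM in wild type libraries. The null values lay close together, far below wild type replicates 1 and 2 and just above wild type replicate 3. The log2 fold change of Jag1 was -0.36 ± 0.16 (SE, 95% interval -0.74 to 0.02, adjusted p = 0.282). Without wild type replicate 3 it was -0.54 ± 0.05 with an adjusted p of 7.08e-07, the smallest of the 10 in that fit. With a term for the sample-name range, a fit in which wild type replicate 3 alone stands for wild type among the names 11 to 14, it was 0.10 ± 0.07 (adjusted p = 0.600), a turned sign.

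Dll1, the Delta-type ligand that neighbouring progenitors show each other, had 49.0, 49.7 and 52.7 CPM in null, against 54.7, 50.2 and 50.7 CPM in wild type. The groups overlapped, and wild type replicate 3 lay among the others. Its log2 fold change was -0.04 ± 0.07 (adjusted p = 0.753), and the 95% interval of -0.20 to 0.12 was the narrowest of the 10. Over all alternative fits it ran from -0.08 to 0.00 and passed in none. Dll3, a divergent Delta protein that does not activate receptors on neighbouring cells, had 16.4, 17.7 and 16.7 CPM in null, against 17.4, 14.1 and 20.8 CPM in wild type. Both genotypes overlapped widely, with wild type replicate 3 the highest, and the log2 fold change was -0.03 ± 0.14 (adjusted p = 0.925). It turned to 0.10 ± 0.10 (adjusted p = 0.457) without wild type replicate 3.

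Rbpj, the DNA-binding protein through which all Notch receptors act, was lower in each null library than in any wild type library. It had 36.4, 38.4 and 33.4 CPM in null, against 43.3, 44.0 and 41.9 CPM in wild type. The wild type libraries lay close together, wild type replicate 3 included. Rbpj had a log2 fold change of -0.26 ± 0.07 (SE, 95% interval -0.42 to -0.09), an unadjusted p of 0.00764 and an adjusted p of 0.169, so it did not pass. It was -0.28 ± 0.07 (adjusted p = 0.00484) without wild type replicate 3 and -0.22 ± 0.10 (adjusted p = 0.375) with the sample-name term. Over the 18 alternative fits its value ran from -0.30 to -0.20, and 2 of them passed.

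Among the targets, groups were separate for Hes1 alone. Hes1, the repressor that keeps progenitors undifferentiated, had 31.1, 36.2 and 33.5 CPM in null libraries, against 45.0, 48.0 and 38.2 CPM in wild type libraries. All null values lay below all wild type values, with wild type replicate 3 between the null libraries and the other wild type libraries. The log2 fold change of Hes1 was -0.39 ± 0.10 (SE, 95% interval -0.61 to -0.16), a fold of 0.765, with an unadjusted p of 0.00377 and an adjusted p of 0.137. It passed in 3 of 18 alternative fits, with DESeq2 (-0.40, adjusted p = 0.0432), with limma-voom and sample quality weights (-0.44, adjusted p = 0.000727), and without wild type replicate 3 (-0.47 ± 0.07, adjusted p = 8.32e-05). The weights of that limma-voom fit were 1.101 to 1.70 for 5 libraries and 0.215 for wild type replicate 3. With the sample-name term the value of Hes1 was -0.18 ± 0.11 (adjusted p = 0.486). Groups that do not overlap, as for Hes1 and Rbpj (2 of 10), were found for 22.0% of all tested genes.

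Hes5, another Hes repressor that Notch switches on in the embryonic brain, was the least abundant target. It had 4.04, 4.36 and 4.95 CPM in null, against 4.30, 4.05 and 5.26 CPM in wild type, from 86 to 111 counts per null library and 53 to 111 counts per wild type library. The groups overlapped, and the log2 fold change was -0.01 ± 0.17 (95% interval -0.39 to 0.37, adjusted p = 0.988), and 0.09 ± 0.15 (adjusted p = 0.673) without wild type replicate 3. The kit does not mark strand, and exons of an annotated gene on the opposite strand, Gm20421, overlap those of Hes5, so reads of the 2 cannot be told apart. Opposite-strand genes also overlap exons of Notch1, Notch3 and Dll1, and a gene on the same strand, Gm42820, overlaps exons of Notch2 (GENCODE M21 annotation).

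Letters near a RefSeq start of Hes5 are shown because RBPJ acts on target genes through sites of this kind. The 250 bases before that start were searched on both strands for the RBPJ core motif GTGGGAA, whose complement is TTCCCAC. The RefSeq record of Hes5 as a whole begins at base 154960626 of chromosome 4, upstream of the searched bases, so they lie inside the record and before 1 of its starts. Both matches lie on chromosome 4 of GRCm38.p6 and are printed on the plus strand, at chr4:154960686-154960714 and chr4:154960829-154960857, with capitals for the motif or its complement.
Hes5, complement: gggcgagcgcgTTCCCACagcccggacat
Hes5, motif: ggccgccgagtGTGGGAAcggccgcggcg
The motif begins 83 bases before that start on the plus strand, and its complement begins 226 bases before it, with no overlap between them. At least 1 match to either was found in 5.42% of 32851 RefSeq promoter windows of this length, and 2 or more in 0.161%. A RefSeq window was at hand for 8 of the 10 genes. Hes1 and Hey1 had none and were not searched, so Hes5 was the only target among the 8. Of these 8 genes Hes5 alone held these letters. A match describes the letters and is not a bound site.

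Hey1, a relative of the Hes repressors, had 16.1, 18.3 and 17.3 CPM in null, against 13.1, 13.4 and 20.6 CPM in wild type. The null libraries lay above wild type replicates 1 and 2 and below wild type replicate 3, as for Notch1. The log2 fold change was 0.16 ± 0.17 (adjusted p = 0.604) over all libraries, 0.38 ± 0.09 (adjusted p = 0.00431) without wild type replicate 3, and -0.26 ± 0.13 (adjusted p = 0.404) with the sample-name term.

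**Figure D2:**
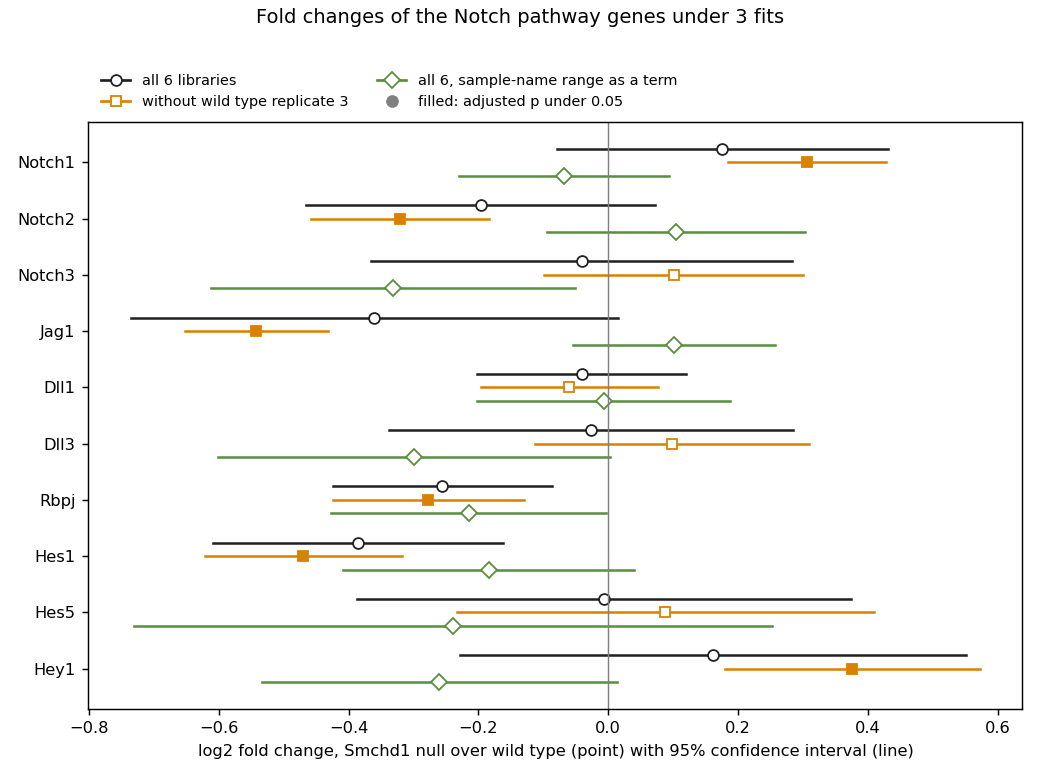
Log2 fold change of each Notch pathway gene, Smchd1 null over wild type (x axis), as a point with its 95% confidence interval, over all 6 libraries, without wild type replicate 3, and with the sample-name term. Filled symbols have an adjusted p under 0.05, and they are found only without wild type replicate 3, for Notch1, Notch2, Jag1, Rbpj, Hes1 and Hey1. Jag1 stands at -0.36, -0.54 and 0.10 in these fits, and Dll1 stays near 0 in all 3.

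Compared per kilobase of gene length (RPKM, CPM divided by the deposited gene length), the order of the genes was much alike in both genotypes. Hes1 led, at 23.2 ± 1.75 RPKM in null and 30.1 ± 3.46 RPKM in wild type (mean ± SD, n = 3 each), and Jag1 followed, at 21.9 ± 0.35 RPKM in null and 28.0 ± 6.75 RPKM in wild type. The libraries of these 2 genes overlapped in both genotypes, so their order was not separable. Notch1 stood at 19.5 ± 0.28 RPKM in null and 17.3 ± 2.95 RPKM in wild type, and Dll1 at 14.7 ± 0.59 RPKM in null and 15.1 ± 0.71 RPKM in wild type. In null libraries Jag1, Notch1 and Dll1 were each separate from the next, whereas in wild type libraries Jag1 overlapped Notch1 and Notch1 overlapped Dll1. A lower band held Dll3 (7.83 ± 0.31 RPKM in null, 8.07 ± 1.56 in wild type), Hey1 (7.81 ± 0.50 RPKM in null, 7.12 ± 1.94 in wild type), Rbpj (6.32 ± 0.44 RPKM in null, 7.54 ± 0.19 in wild type) and Notch2 (5.53 ± 0.40 RPKM in null, 6.31 ± 1.02 in wild type). In that band the libraries of neighbours in the order overlapped, other than Hey1 and Rbpj in null. Notch3 (3.55 ± 0.47 RPKM in null, 3.69 ± 0.67 in wild type) and Hes5 (3.49 ± 0.36 RPKM in null, 3.56 ± 0.50 in wild type) were the lowest, overlapped each other, and lay below Notch2 in both genotypes.

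Shares within a role do not depend on how the libraries are scaled, and most of those given here also set wild type replicate 3 beside the null libraries. Hes1 made up 67.2%, 68.0% and 66.4% of the summed RPKM of the 3 targets in null replicates 1 to 3, against 76.9%, 78.1% and 66.1% in wild type replicates 1 to 3. Hey1 made up 22.9%, 22.6% and 22.5% in null, against 14.7%, 14.3% and 23.5% in wild type. Both shares in wild type replicate 3 lay near those of null and far from those of the other wild type libraries. Among ligands Jag1 made up 49.5%, 49.4% and 48.7% in null, against 58.1%, 58.8% and 45.5% in wild type. Among receptors Notch1 made up 68.6%, 68.1% and 68.0% in null, against 61.9%, 59.3% and 68.0% in wild type, and Notch2 20.8%, 18.1% and 19.1% in null, against 25.8%, 27.4% and 17.1% in wild type. Notch3 made up 10.6%, 13.8% and 12.9% in null, against 12.2%, 13.3% and 14.9% in wild type. Dll3 made up 17.5%, 18.3% and 17.1% of the ligand sum in null, against 14.1%, 12.7% and 21.5% in wild type. For both genes wild type replicate 3 had the highest share of all libraries. No test was made of these shares.

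**Figure D3:**
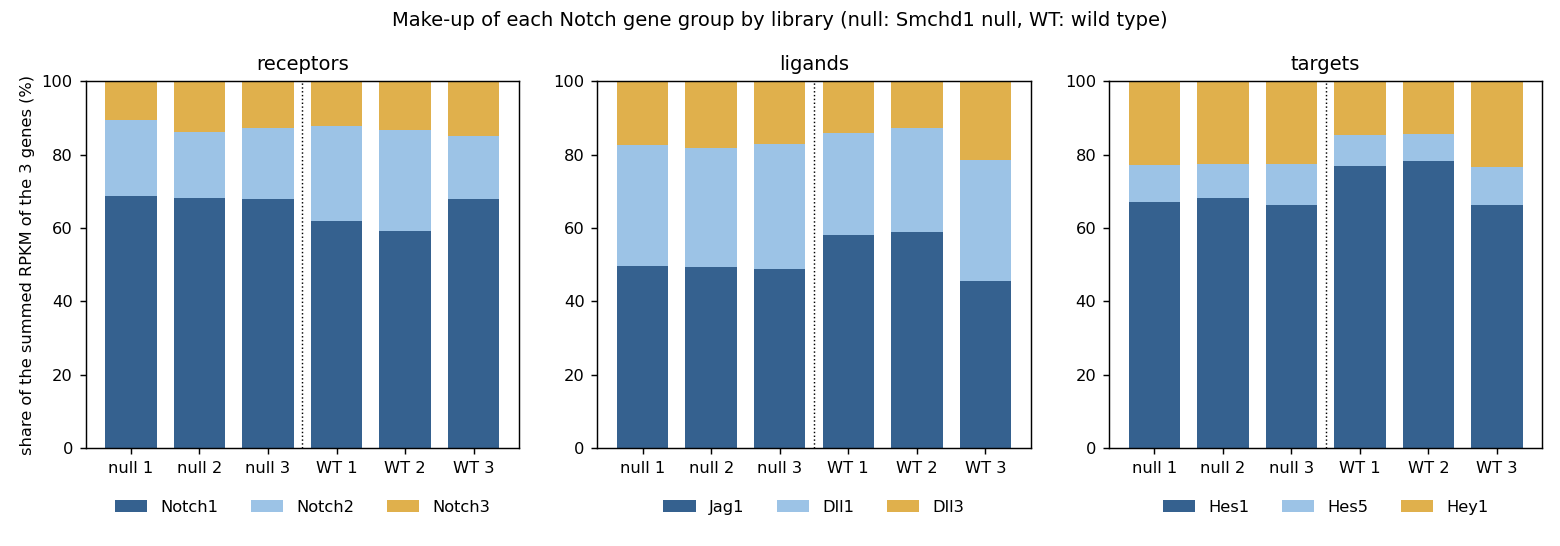
Share of each gene in the summed RPKM of its role (y axis, percent) in each library, null libraries on the left of the dotted line and wild type libraries on the right. Hes1 takes 66.4% to 68.0% of the target sum in null libraries and 66.1% in wild type replicate 3, against 76.9% and 78.1% in wild type replicates 1 and 2.

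A wider list of 68 pathway genes in 9 roles gave no call either. Of these, 56 were tested, and 0 passed the edgeR test, against the 0.577% of all genes above. Unadjusted, 9 of the 56 had a p under 0.05, where 18.6% of all tested genes did. DESeq2 and limma-voom called 0, beside 2.78% and 0.894% of all genes, and limma-voom with sample quality weights called 22, beside 36.4% of all genes. Of the 56 fold changes, 21 were above 0 and 35 below, with a median of -0.06 on the log2 scale. Without wild type replicate 3, 9 were called higher and 14 lower out of 57 tested, beside 19.7% and 19.4% of all genes. The 12 untested genes held at most 59 counts over all 6 libraries, among them Hes2, Hes3, Hes7, Hey2, Heyl and the proneural genes Neurog1, Neurog2, Neurog3 and Atoh1, with Neurog3 at 0.

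The smallest p of the wider list belonged to Groucho-type corepressors, which Hes proteins recruit. Tle3 had 37.0, 35.7 and 34.1 CPM in null, against 26.4, 22.8 and 31.6 CPM in wild type, with separate groups and a log2 fold change of 0.42 ± 0.11 (SE, adjusted p = 0.150). Tle4 lay in the opposite direction, at 139.8, 145 and 151.2 CPM in null, against 213, 205 and 151.3 CPM in wild type, a log2 fold change of -0.39 ± 0.12 (adjusted p = 0.189). For Tle4 the highest null library nearly met wild type replicate 3. Tle2 stood at 0.76 ± 0.25 (adjusted p = 0.209), with wild type replicate 3 within the null range. Without wild type replicate 3 all 3 passed, at 0.53 for Tle3, -0.53 for Tle4 and 1.06 for Tle2. Of the 12 corepressors, 3 were called higher and 5 lower in that fit, beside 19.7% and 19.4% of all genes.

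Of genes that act on the ligands, 2 of 4 fold changes were above 0, and of genes that add sugars to the receptor 3 of 5, none past the threshold. Neurl1b, a ubiquitin ligase that drives ligand uptake, had 43.2, 39.5 and 45.8 CPM in null, against 22.6, 16.3 and 39.4 CPM in wild type. Its null libraries lay above all wild type libraries, with wild type replicate 3 close beneath them. The log2 fold change of Neurl1b was 0.76 ± 0.30 (adjusted p = 0.260), and 1.13 ± 0.12 (adjusted p = 8.35e-05) without wild type replicate 3. The ligases Mib1 (0.04 ± 0.06) and Neurl1a (-0.10 ± 0.15, and 0.0016 without wild type replicate 3) had intervals that include 0. Mfng, a Fringe glycosyltransferase that tunes which ligands a receptor answers to, stood at 0.47 ± 0.20 (adjusted p = 0.257), and at 0.55 ± 0.19 (adjusted p = 0.0275) without wild type replicate 3, while Poglut1 and Pofut1, which add the first sugars, stood at 0.14 ± 0.07 and -0.11 ± 0.07.

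In the list of cleavage enzymes 8 of 10 fold changes were below 0, none past the threshold, led by Furin, the protease that matures the receptor (-0.30 ± 0.11, adjusted p = 0.229), and Psenen, a gamma-secretase subunit (-0.34 ± 0.14, adjusted p = 0.254), with Ncstn, another subunit, at -0.11 ± 0.07. Among the 8 coactivator genes 7 were below 0, for example Snw1 (-0.15 ± 0.06), Maml1, the scaffold that binds the Notch and RBPJ pair (-0.22 ± 0.11), and the acetyltransferase gene Kat2b (-0.20 ± 0.13). Among inhibitors and turnover genes 7 of 10 were below 0. Fbxw7, which marks the active receptor fragment for destruction, stood at -0.25 ± 0.10 (adjusted p = 0.2401), Itch at -0.13 ± 0.07 and Numb at -0.22 ± 0.13. Of the genes named here 6 were called lower without wild type replicate 3, with adjusted p from 5.90e-05 for Fbxw7 to 0.0470 for Maml1. They were Psenen (-0.40), Snw1 (-0.20), Maml1 (-0.26), Kat2b (-0.30), Fbxw7 (-0.36) and Itch (-0.20). In that fit the whole list of cleavage enzymes had 0 called higher and 1 lower, and the coactivators 0 and 3. The inhibitors and turnover genes had 3 called higher and 4 lower, beside 19.7% and 19.4% of all genes. Furin (-0.23), Ncstn (-0.07) and Numb (-0.28) were not called in that fit. Over all tested genes 7143 fold changes were above 0 and 7064 below.

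The other receptors and ligands were rare apart from Dner, an atypical ligand of neurons, with 69.9 to 81.7 CPM in null and 57.1 to 86.5 CPM in wild type. Its log2 fold change was 0.09 ± 0.14 (adjusted p = 0.722). Dll4 (-0.40 ± 0.23) and Notch4 (0.43 ± 0.33), both known from vessels, had at most 2.28 CPM in any library. Hes6, which counteracts Hes1, stood at -0.17 ± 0.11 (adjusted p = 0.425), and was lower in null without wild type replicate 3 (-0.30 ± 0.06, adjusted p = 0.00106). With the sample-name term 2 of the 56 genes passed, against 1.31% of all genes, and both were lower in null. Among the libraries named 11 to 14 alone 2 of the list passed as well, where 2.55% of all genes did. Neurod1, a neuronal differentiation gene, had at most 0.969 CPM in any library and a log2 fold change of 0.05 ± 0.41, or -0.16 ± 0.35 without wild type replicate 3.

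**Figure D4:**
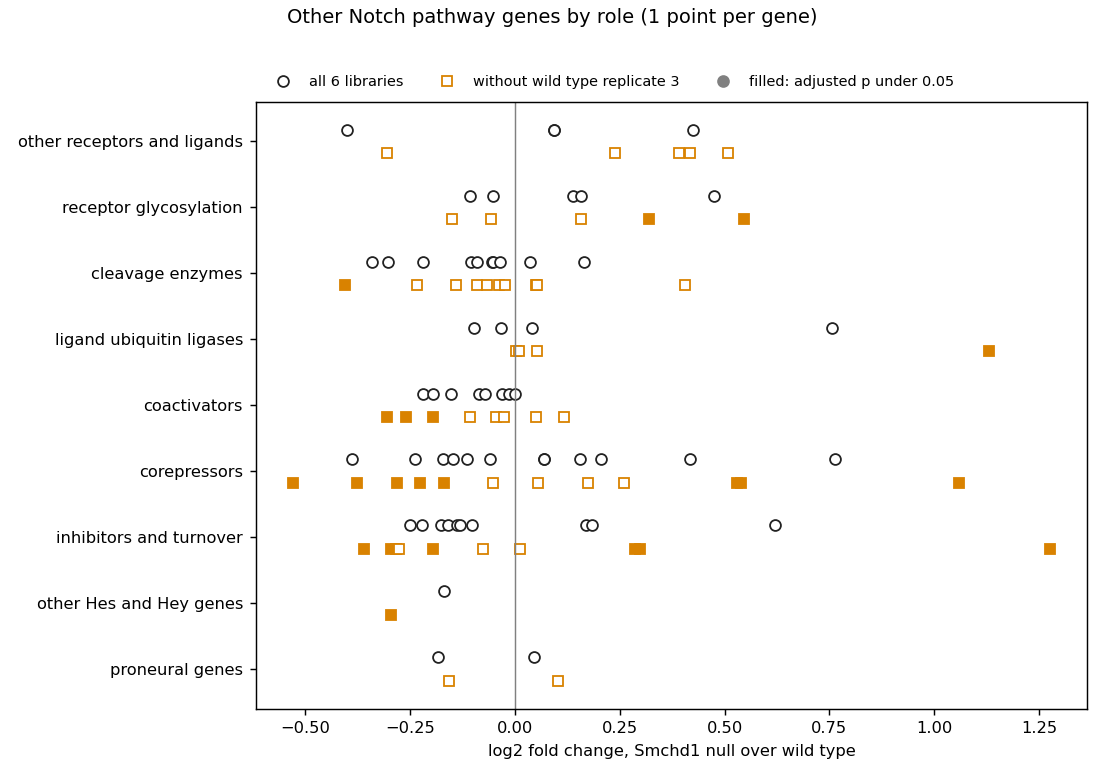
Log2 fold change, Smchd1 null over wild type (x axis), of the other tested Notch pathway genes, 1 point per gene, by role (rows), over all 6 libraries (circles) and without wild type replicate 3 (squares). No circle is filled, while the filled squares are the 9 genes called higher and the 14 called lower without that library.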

How the data were processed

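RNA of 6 libraries was sequenced from total RNA with a TruSeq RNA v2 kit and single reads, per the labels' protocols. The authors deposited raw counts per Entrez gene with a gene length, and the submitters' processing notes name CASAVA 1.8.2, featureCounts, edgeR 3.8.2, limma 3.22.0 and the mm10 build. Neither the aligner nor the annotation is given in the sources used here. Symbols came from a RefSeq table of GRCm38.p6, which matched 25275 of 27179 IDs (93.0%), and promoter sequences came from RefSeq on the same build. Groups follow the sample titles.

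Counts were filtered with filterByExpr, scaled by TMM and tested with edgeR 4.0.16 in R 4.3.3 (robust quasi-likelihood F-test with genotype as the only term, two-sided). P-values were adjusted by the Benjamini-Hochberg method over 14207 genes, at a threshold of 0.05. Fold changes are null over wild type. Standard errors and 95% intervals came from the F statistic. CPM uses TMM-scaled totals. Alternatives used DESeq2 1.42.0, limma-voom 3.58.1, other scalings, filters and terms, and left out each library in turn. The edgeR, DESeq2 and limma-voom tests were also run on simulated data, with results that are not reported here. That check does not extend to every alternative fit.

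Libraries of a genotype differed by more than sampling noise. The mean chi-square per gene was 7.72 to 16.4 between null libraries and 8.83 between wild type replicates 1 and 2. Between wild type replicate 3 and wild type replicates 1 and 2 it was 1088 and 1053. The chi-square used raw totals without TMM scaling. The values of wild type replicate 3 therefore include the shift that its few very abundant records put on all other genes. They do not measure replicate spread alone. The genes and lists were chosen with earlier results of these data known. Named genes of the wider list are the 3 with the smallest p per role. Single marker genes and the untested genes given by name were chosen after their values were seen. Some genes that this rule takes are not reported here.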

Additional observations from a re-analysis of the deposited data

How the results depend on the processing

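The number of called genes depends above all on wild type replicate 3. Over the fits that leave out 1 library each, 29 to 2857 genes were higher in null and 1 to 2819 lower, against 72 and 10 with all libraries, and the upper ends are the fit without wild type replicate 3. Among the 10 Notch genes those fits gave 0 to 2 higher and 0 to 4 lower, and among the wider list 0 to 9 higher and 0 to 14 lower, where every count above 0 came without that library. With sample quality weights limma-voom gave 2700 genes higher and 2468 lower, with 2 and 4 among the Notch genes and 9 and 13 in the wider list. DESeq2 gave 178 higher and 217 lower, with 1 Notch gene lower, and limma-voom without such weights gave 23 lower. No filter gave 163 higher and 59 lower, a filter at 5 CPM in 3 libraries gave 35 and 3, and the libraries named 11 to 14 gave 126 and 250. The sample-name term gave 109 lower, and it and the libraries named 11 to 14 each gave 2 lower in the wider list.

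Replicate numbers do not mark a shared litter or day in the labels. Deviations from the group means correlated at -0.01, 0.03 and -0.04 for same-numbered libraries, and at -0.05 to 0.06 for the other pairs. Wild type replicate 3 weighs on the wild type mean and so on every wild type deviation, so these values cannot decide whether libraries were paired. With the replicate block 48 genes were higher and 6 lower, and 0 Notch genes were called.

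Signs turned with the sample-name term and among the libraries named 11 to 14 for Notch1 (-0.068 and -0.069), Notch2 (0.10 in both), Jag1 (0.10 in both) and Hey1 (-0.26 in both). For fold changes near 0, Notch3 turned to 0.083 with quality weights, Dll3 to 0.024 with limma-voom, 0.080 with quality weights and 0.0044 with upper-quartile scaling, and Hes5 to 0.018, 0.063 and 0.026 in the same order. With 1 library left out Notch3 ran from -0.13 to 0.10, Dll3 from -0.17 to 0.10, and Hes5 from -0.10 to 0.088. The largest shifts of these genes came with the sample-name term and among the libraries named 11 to 14. There Notch3 was at -0.33, Dll3 at -0.30 and Hes5 at -0.24 in both. Dll1, Rbpj, Hes1 and Smchd1 turned sign in none of the 18 alternatives. The filter at 5 CPM left out Hes5. The cause of these shifts was not tested. Wild type replicate 3 had the lowest effective depth of the 6 libraries, which limits the precision of low genes such as Hes5 there.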

Other observations

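Genes with the pattern most like Hes1 and Jag1 were looked up, among tested genes whose mean log2 CPM was 1 or more, by the root mean square difference of log2 CPM over the 6 libraries after each gene was centred on its mean. For Hes1, whose own range over the libraries was 0.62, they were Gm6978 (0.029), Sec23a (0.033) and Wwtr1 (0.039). Sec23a, a coat protein of transport vesicles, had 122, 142 and 129.8 CPM in null libraries, against 179, 184 and 142 CPM in wild type libraries. For Jag1, with a range of 0.71, they were Ldlrad3 (0.027), Idh2 (0.030) and Sertad1 (0.035). Idh2, a mitochondrial isocitrate dehydrogenase, had 179.6, 187 and 193 CPM in null libraries, against 281, 264 and 179.1 CPM in wild type libraries. The likeness rests on 6 libraries and is a description.

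Dtx1, a Deltex gene of Notch regulation picked after its values were seen, had the largest ratio between wild type replicate 3 and the mean of the other wild type libraries, 3.04, among the tested genes of the wider list. Over all 6 libraries Dtx1 was not called, with a log2 fold change of 0.62 ± 0.45 (SE, adjusted p = 0.469 in the edgeR test). Without wild type replicate 3 it was called higher in null, as were 19.7% of all genes. It had 18.1, 18.2 and 19.3 CPM in null libraries, against 8.22, 7.04 and 23.2 CPM in wild type libraries. Pdgfra, a receptor gene of oligodendrocyte precursors, had the same arrangement at a larger size, with 112.6, 128 and 137 CPM in null, against 17.1, 18.3 and 167 CPM in wild type. The part of oligodendrocyte lineage cells in these levels was not tested.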
